A study of Mus musculus with 32 samples.

Results

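The 9 genes Syt1, Cplx1, Cplx2, Snap25, Stx1a, Syp, Syn1, Syn2 and Vamp2 encode proteins of the machinery that releases transmitter from synaptic vesicles, and their transcripts were followed in the hippocampus of 8 inbred mouse strains. Every probe set whose single gene symbol in the platform annotation is one of these names was taken. That gave 9 probe sets for 8 of the 9 genes, out of 12422 probe sets that are not controls. Vamp2 had 2 probe sets, Syn1 had 0 with that symbol and is not measured here, and no probe set with several symbols carried a member's name. All 9 probe sets were among the 7453 with the highest mean signal, which were tested, so no member was lost to the filter on low values.

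Transmitter release rests on a bundle of helices formed by Vamp2 (synaptobrevin) on the vesicle with Stx1a (syntaxin) and Snap25 on the presynaptic membrane. Syt1 (synaptotagmin) is the vesicle's calcium sensor for fast release, and the complexins Cplx1 and Cplx2 bind the assembled helices and both hold back and promote fusion. Synapsins such as Syn1 and Syn2 tie vesicles into a reserve pool, and Syp (synaptophysin) is an abundant vesicle membrane protein used as a general marker of nerve terminals.

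The 8 strains were SJL/J, FVB/NJ, DBA/2J, C57BL/6J, C3H/HeJ, BALB/cByJ, A/J and strain-129S1/SvImJ, all untreated and kept under the same conditions, with age and sex not given in the sources used here. Total hippocampal RNA of 6 mice was combined into 1 pool per strain, cRNA was made from its cDNA in 2 preparations, and each preparation went onto 2 Affymetrix U74Av2 arrays, which gave 4 arrays per strain and 32 in all. Arrays 1 and 2 of a strain carry preparation 1, and arrays 3 and 4 carry preparation 2. As only 1 pool stands for a strain, the SDs and p-values cover technical spread and say nothing of how mice of a strain vary. Levels are given as log2 of deposited signal, so that a difference of 1 is 2-fold. A strain mean and its SD come from 2 preparation values (n = 2), and adjusted p-values are those of limma fits over all 7453 probe sets, with 0.05 as the threshold. RNA from whole hippocampus cannot tell fewer cells of a type from less RNA per cell.

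Some arrays stood apart in ways that touch these genes. The days in the sample titles fall in 3 calendar months, with 15 arrays in the first, 14 in the second and 3 in the third, and month largely follows preparation. FVB/NJ is the exception, because its array 2 has a title in the second month although it carries preparation 1. BALB/cByJ has no array in the second month. Control probe sets for the sense strand read log2 6.95 to 7.84 on 11 arrays, namely array 1 of FVB/NJ, the preparation 1 arrays of SJL/J, C3H/HeJ and A/J, and all 4 of BALB/cByJ, and 4.91 to 5.64 on the other 21. The 3′ to 5′ log2 ratio of the actin control lay between -0.18 and 0.68 and that of Gapdh between -0.52 and -0.02. The number of arrays limits the precision of each value. The markers of hippocampal neurons included bright ones: Ncdn, a neuronal protein, had a median signal of 4081, Gria1, a glutamate receptor subunit of hippocampal neurons, 1583 on its brighter probe set, and Nrgn, a calmodulin-binding protein of forebrain neurons, 1066. Prox1, which marks granule cells, was low at 43.35. Markers of neighbouring tissue were mixed. Over tested probe sets, the summed signal of the choroid plexus list averaged 366 in C57BL/6J to 836 in strain-129S1/SvImJ. That of the thalamus and striatum list averaged 749 in A/J to 1141 in SJL/J. The brightest were Igf2 (median signal 343) and Ttr (220) in the first list and Penk (224) in the second. Others were too low to be tested, among them Aqp1 (4.7 and 18.5) and F5 (7) of choroid plexus and Rgs9 (5.6) of striatum. Signals of different probe sets do not rank these cells by amount.

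Start-site sequences are shown for the 2 members whose level differed between strains, Cplx2 and Syt1, and for Cplx1, the other complexin, whose level did not pass. They are from RefSeq on the mouse assembly GRCm38.p6, which is built from C57BL/6J, and hold 250 bases before and 50 after an annotated start, written 5′ to 3′ on the gene's strand. Alleles of the other strains are not shown by them. Capitals mark matches on either strand to 5 short motifs searched in each window, TATAAA as the TATA box, GGGCGG as the GC box, TGACGTCA as the cAMP response element, GATTGG as the inverted CCAAT box and GCGTGGGCG as the Egr site. The Egr site can overlap the GC box, since both hold the letters GGGCG.
Cplx2, chr13:54302306-54302605, plus strand: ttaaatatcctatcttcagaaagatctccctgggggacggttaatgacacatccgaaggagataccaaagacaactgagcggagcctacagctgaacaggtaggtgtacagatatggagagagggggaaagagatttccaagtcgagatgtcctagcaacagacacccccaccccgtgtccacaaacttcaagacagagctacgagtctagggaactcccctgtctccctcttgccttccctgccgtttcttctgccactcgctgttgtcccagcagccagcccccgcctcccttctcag
Syt1, chr10:109010926-109011225, minus strand, 1 of 2 annotated starts: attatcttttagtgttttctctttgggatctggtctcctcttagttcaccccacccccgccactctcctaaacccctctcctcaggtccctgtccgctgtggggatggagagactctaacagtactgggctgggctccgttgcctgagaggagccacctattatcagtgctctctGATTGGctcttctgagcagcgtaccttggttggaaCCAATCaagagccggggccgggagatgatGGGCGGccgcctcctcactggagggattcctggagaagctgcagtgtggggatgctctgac
Cplx1, chr5:108549978-108550277, minus strand: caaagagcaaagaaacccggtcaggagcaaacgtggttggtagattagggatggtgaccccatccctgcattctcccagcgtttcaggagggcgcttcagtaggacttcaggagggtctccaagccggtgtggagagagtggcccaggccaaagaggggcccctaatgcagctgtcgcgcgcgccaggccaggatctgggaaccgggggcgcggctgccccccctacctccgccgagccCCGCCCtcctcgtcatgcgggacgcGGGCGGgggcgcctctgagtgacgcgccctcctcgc

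The Cplx2 window held none of the 5 motifs and had a GC content of 53.3%, near the median of 52.7% over 32851 windows of the same length. In the Syt1 window the matches were GATTGG from base -75, the same motif on the opposite strand from base -40, and GGGCGG from base -11, counted from the annotated start. The window of the other Syt1 start, chr10:109009062-109009361, held none of the motifs and had a GC content of 44%. The Cplx1 window had a GC content of 67% and held GGGCGG on the opposite strand from base -11 and on the gene's own strand from base 15. Over 9 windows of 7 member genes, Syn1 included, 5 held GGGCGG, which 35.7% of all windows hold, and 2 held GATTGG, which 16.1% hold. TGACGTCA, present in 1.79% of all windows, was in the window of Syn1, TATAAA (13.6%) and GCGTGGGCG (0.612%) were in 0 of the 9, and Snap25 and Vamp2 had no window in the table. A match is a run of letters and not a bound site.

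Of the 9 member probe sets, those of Cplx2 and Syt1 passed limma's moderated F-test across the 8 strains, against 4.58% of all tested probe sets. The other 7 probe sets did not. The members' median range between the highest and lowest strain mean was 0.53 on the log2 scale, beside 0.68 over all tested probe sets. With the preparation number as a block, which removes the mean difference between the 2 preparations, the same 2 passed and 18.9% of all probe sets did. The members' share with the block was thus close to that of all probe sets. Cplx2 had a range of 2.41, which 99.3% of tested probe sets did not reach, and Syt1 one of 1.16, with 85.5% below it.

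**Figure D1:**
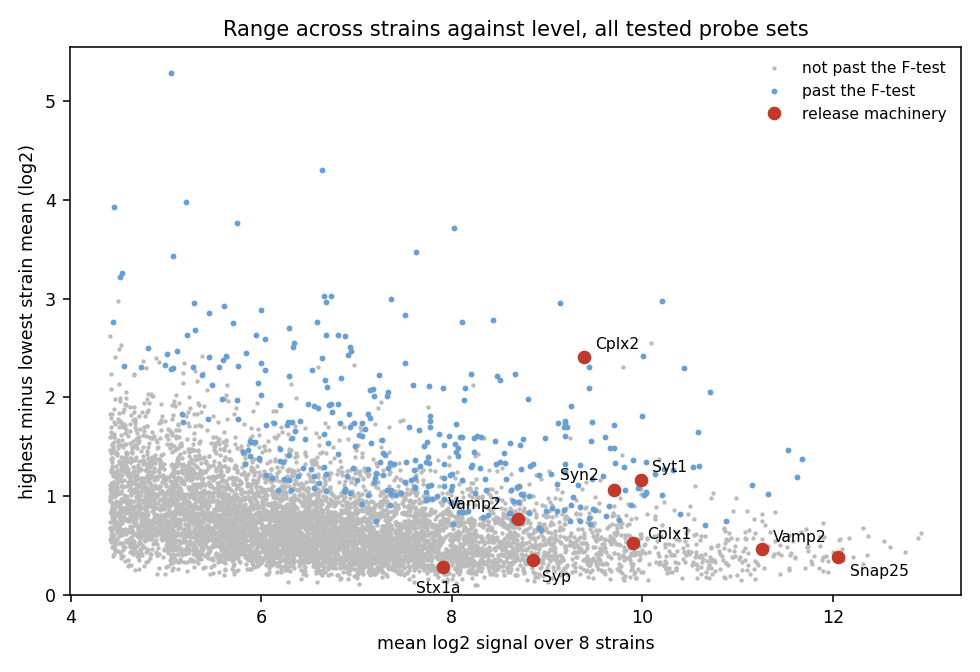
Each point is 1 of the tested probe sets, with its mean log2 signal over 8 strains on the horizontal axis and the difference between its highest and lowest strain mean (log2) on the vertical axis. Cplx2 (2.41) and Syt1 (1.16) are the release genes past the F-test, and the 7 other member probe sets lie between 0.28 and 1.07; positions along the horizontal axis depend on the probes and do not rank genes by abundance.

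Cplx2, 1 of the 2 complexins of forebrain synapses, had the widest range between strains of the 9 member probe sets. It was high in A/J, C3H/HeJ and BALB/cByJ and low in C57BL/6J and DBA/2J, with a 5.32-fold span between A/J (10.65 ± 0.26) and DBA/2J (8.24 ± 0.31). The F-test gave an adjusted p of 0.00124, and 75.3% of the variance over the 32 arrays lay between strains, beside a median of 6.73% over all tested probe sets.

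On the 4 arrays of A/J, in order of their numbers, Cplx2 read 10.86, 10.82, 10.67 and 10.27. In C3H/HeJ it read 10.51, 10.07, 10.19 and 10.16. BALB/cByJ gave 9.89, 9.68, 10.50 and 10.55. Every one of these 12 arrays lay above every array of strain-129S1/SvImJ, C57BL/6J and DBA/2J. The values in strain-129S1/SvImJ were 8.91, 8.68, 9.03 and 9.06. C57BL/6J read 8.16, 8.65, 8.38 and 8.42, and DBA/2J 8.17, 7.88, 8.42 and 8.49. Arrays of C57BL/6J and DBA/2J overlapped each other, and array 2 of strain-129S1/SvImJ lay only just above the highest of C57BL/6J.

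FVB/NJ and SJL/J took both ranges. FVB/NJ read 10.62 on array 1 and 8.82, 8.81 and 9.30 on arrays 2, 3 and 4. SJL/J read 9.96 and 9.28 with preparation 1 and 8.50 and 8.61 with preparation 2. In both strains the high values came from arrays with high sense-strand control signal. Arrays 1 and 2 of FVB/NJ carry the same preparation per the series design, and their deposited signals for Cplx2 were 1570.6 and 450.6. The mean was 9.39 ± 0.47 in FVB/NJ and 9.09 ± 0.75 in SJL/J.

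**Figure D2:**
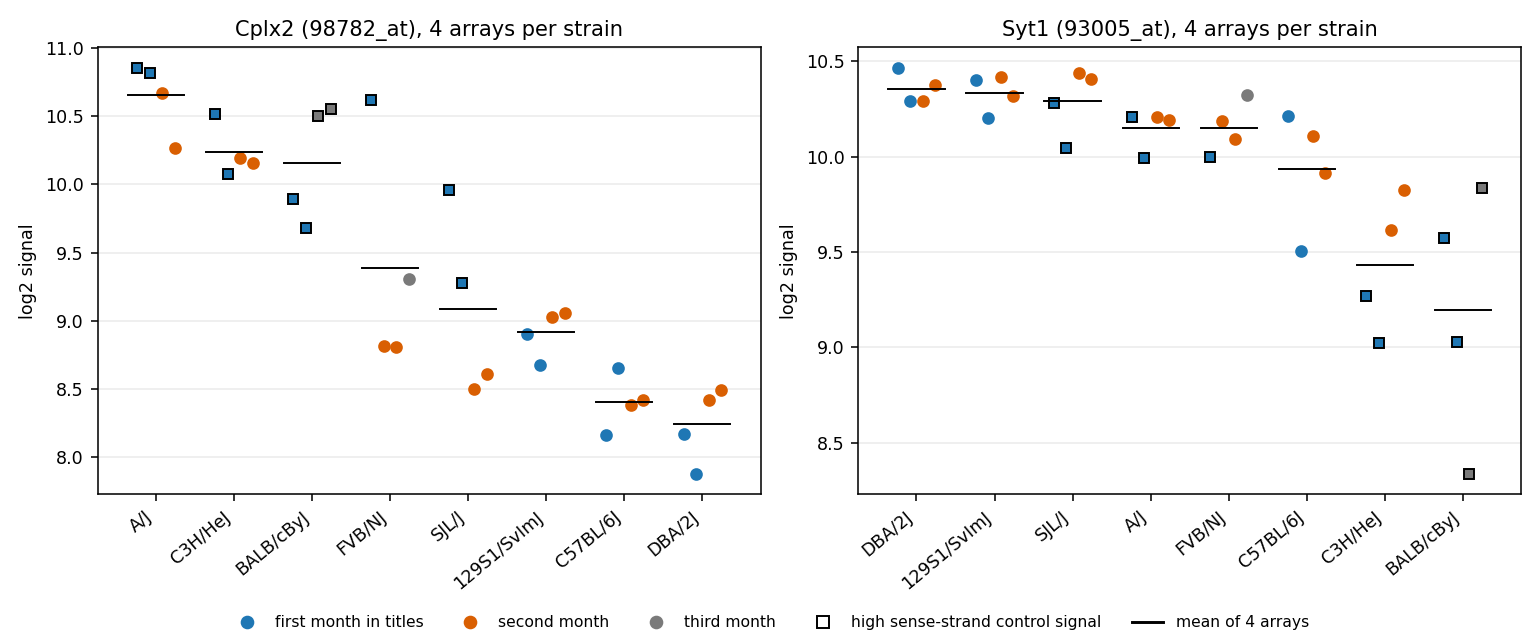
The 4 arrays of each strain for Cplx2 (left) and Syt1 (right), as log2 signal, with strains ordered from the highest to the lowest mean, colour for the month in the titles, squares for arrays with high sense-strand control signal and a line at the strain mean. A/J (10.65) is highest and DBA/2J (8.24) lowest for Cplx2, with FVB/NJ and SJL/J spread over both ranges; for Syt1 only C3H/HeJ (9.43) and BALB/cByJ (9.19) have means well under 10.

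Relative to the average of the 7 other strains, Cplx2 was higher by 1.45 ± 0.24 (SE) in A/J (2.73-fold, adjusted p = 0.0097) and by 0.88 ± 0.24 in BALB/cByJ (adjusted p = 0.041). It was lower in DBA/2J, with a difference of -1.31 ± 0.24 (adjusted p = 0.012), and in C57BL/6J, with -1.12 ± 0.24 (adjusted p = 0.025). In C3H/HeJ the difference of 0.97 did not pass (adjusted p = 0.13) until preparation entered as a block (adjusted p = 0.047). The same contrasts called 0.751% of all tested probe sets in strain-129S1/SvImJ, 0.537% in A/J, 8.92% in BALB/cByJ, 0.577% in C3H/HeJ, 2.28% in C57BL/6J, 1.44% in DBA/2J, 0.389% in FVB/NJ and 0.55% in SJL/J. Over the 9 member probe sets and 8 strains there were 5 calls, 4 of Cplx2 and 1 of Syt1. With the block there were 10, but the F-test share over all probe sets also rose, from 4.58% to 18.9%. The share by strain over all probe sets was not computed with the block. The 4 calls for Cplx2 depended, among other settings, on how array 2 of FVB/NJ was treated. Without that array the adjusted p was 0.117 for A/J, 0.143 for BALB/cByJ, 0.098 for C57BL/6J and 0.061 for DBA/2J, with differences of 1.38, 0.82, -1.19 and -1.37. The calls in BALB/cByJ and C57BL/6J also failed with arrays centred on their median (adjusted p = 0.085 and 0.073). They failed too without the variance trend (0.069 and 0.068). Leaving out 1 preparation of the called strain itself left that strain with 1 value. The difference was then 1.26 or 1.63 in A/J and 1.25 or 0.51 in BALB/cByJ. It was -1.09 or -1.52 in DBA/2J and -1.12 with either left out in C57BL/6J.

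Between pairs of strains, Cplx2 passed in 8 of 28 comparisons, where 1.58% of all tests over the 28 pairs passed. A/J was above DBA/2J by 2.41 (adjusted p = 0.0011; 1.38% of probe sets were called in this pair), above C57BL/6J by 2.25, above strain-129S1/SvImJ by 1.73 and above SJL/J by 1.57. C3H/HeJ was above DBA/2J by 1.99 and above C57BL/6J by 1.83, and BALB/cByJ was above the same strains by 1.92 and 1.75. With the preparation block 11 pairs passed, but the block also raised the F-test share over all probe sets. The share by pair was not computed with it. In the order of levels, A/J, C3H/HeJ, BALB/cByJ, FVB/NJ, SJL/J, strain-129S1/SvImJ, C57BL/6J and DBA/2J, 0 of the 7 neighbouring pairs differed beyond their spread.

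The range of Cplx2 was also seen within months. In the first month A/J read 10.84 and DBA/2J 8.02, a range of 2.81 over 8 strains (adjusted p = 5.8e-05 with single arrays as units). In the second month A/J read 10.47 and C57BL/6J 8.40, a range of 2.07 over 7 strains (adjusted p = 2.1e-07, again with single arrays). Within a month the arrays of most strains share a preparation, so p-values for single months cover only the spread between such arrays. Without the 11 arrays of high sense-strand signal the range was 2.23 (adjusted p = 0.0019). For BALB/cByJ, the difference from the other strains was 0.27 within the first month (adjusted p = 0.38), so its call does not hold there. Within A/J the arrays with high sense-strand signal averaged 10.84 and the others 10.47, and within C3H/HeJ 10.29 and 10.17. In SJL/J these means were 9.62 and 8.55. The part of that signal in the level of Cplx2 was not tested further.

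Markers of hippocampal neurons ran partly alongside Cplx2. The list has 14 genes, 13 of them on the array, and 5 of its 15 tested probe sets passed the F-test, where 4.58% of all tested probe sets did. Their summed signal lay between 10953 and 13524 on the arrays of A/J, 10178 and 13067 in C3H/HeJ and 11472 and 14169 in BALB/cByJ, against 9872 and 11148 in C57BL/6J and 9386 and 11188 in DBA/2J. Strain-129S1/SvImJ, where Cplx2 was low, had 11201 to 13299, and FVB/NJ and SJL/J had 10545 to 12559 and 8832 to 11191. None of these markers was at 0, Tdo2 being the dimmest with a lowest signal of 2.4. Summed general neuron markers went partly with Cplx2 and partly against it. BALB/cByJ, where Cplx2 was high, had their highest mean (10968). DBA/2J, lowest for Cplx2, had 9553, above only FVB/NJ (9493). Against the order of Cplx2, C57BL/6J (10290) lay above C3H/HeJ (10021) and A/J (9858). SJL/J had 10149 and strain-129S1/SvImJ 10026. Oligodendrocyte markers were highest in C57BL/6J, at 6496 beside 4484 to 5396 in the other strains, and choroid plexus markers were lowest there, at 366. The part of these markers in the result was not tested.

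Syt1, the calcium sensor of fast release, had its lowest means in BALB/cByJ and C3H/HeJ. These strains did not pass as a pair (difference 0.24, adjusted p = 0.51). With preparation 1 C3H/HeJ was the lower of them, at 9.14 against 9.30. The mean of Syt1 was 10.36 ± 0.03 in DBA/2J and 9.19 ± 0.15 in BALB/cByJ, a span of 2.24-fold (F-test, adjusted p = 0.0028). The remaining strain means were 10.34 ± 0.05 in strain-129S1/SvImJ, 10.29 ± 0.18 in SJL/J, 10.15 ± 0.07 in A/J, 10.15 ± 0.08 in FVB/NJ, 9.94 ± 0.11 in C57BL/6J and 9.43 ± 0.41 in C3H/HeJ. Strain held 62% of its variance, preparation 0% and array 38%.

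The 4 arrays of BALB/cByJ read 9.57, 9.03, 8.34 and 9.84 for Syt1. In C3H/HeJ they read 9.27, 9.02, 9.61 and 9.82. C57BL/6J gave 10.22, 9.50, 10.11 and 9.91. BALB/cByJ and C3H/HeJ overlapped fully, and array 2 of C57BL/6J fell inside their range. DBA/2J read 10.47, 10.29, 10.30 and 10.38, and strain-129S1/SvImJ 10.40, 10.20, 10.42 and 10.32. SJL/J read 10.28, 10.05, 10.44 and 10.41, A/J 10.21, 9.99, 10.21 and 10.20, and FVB/NJ 10.001, 10.19, 10.09 and 10.32. These 5 strains kept all 20 arrays above every array of BALB/cByJ and C3H/HeJ. Arrays 3 and 4 of BALB/cByJ carry 1 preparation and had deposited signals of 323.3 and 914.3.

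In BALB/cByJ, Syt1 was 1.87-fold lower than the mean of the other 7 strains, with a log2 difference of -0.90 ± 0.13 (adjusted p = 0.0019). In C3H/HeJ the difference was -0.63 ± 0.13 (adjusted p = 0.0504, and 0.0061 with the preparation block). In DBA/2J it was 0.43 ± 0.13 (adjusted p = 0.18, and 0.043 with the block). Among pairs 9 of 28 passed (11 with the block, which raised calls over all probe sets as well). BALB/cByJ was below DBA/2J by 1.16 (adjusted p = 0.0021; 5.84% of probe sets were called in this pair) and below strain-129S1/SvImJ, SJL/J, A/J, FVB/NJ and C57BL/6J by between 0.74 and 1.14. C3H/HeJ was below DBA/2J by 0.93, strain-129S1/SvImJ by 0.90 and SJL/J by 0.86, and 0 of 7 neighbours in the order of levels differed.

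The difference in BALB/cByJ was smaller without its array 3, at -0.53 (adjusted p = 0.044), and larger without its array 4, at -1.28. Within the first month, with single arrays as units, it was -0.69 (adjusted p = 0.042). The second month holds no BALB/cByJ array. In that month the 7 other strains spanned 0.71 with single arrays as units (F-test, adjusted p = 0.0012). SJL/J was at 10.43 and C3H/HeJ at 9.72. Arrays that share a preparation are not separate replicates, so these p-values are not on a par with those from preparations. Without BALB/cByJ the F-test on preparations gave a range of 0.93 and an adjusted p of 0.054. Without all arrays of high sense-strand signal, which also drops BALB/cByJ, the range was 0.71 and the adjusted p 0.19. All 4 arrays of BALB/cByJ have high sense-strand signal, so strain and that signal cannot be told apart there. In C3H/HeJ the arrays with it averaged 9.14 and those without it 9.72, in SJL/J 10.16 and 10.43, and in A/J 10.10 and 10.20.

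The remaining members, which did not pass the test across strains, are the 3 SNARE proteins, Cplx1, Syn2 and Syp. Snap25, the membrane partner that lends 2 helices to the bundle, spanned 0.39 between C3H/HeJ (12.24 ± 0.44) and DBA/2J (11.85 ± 0.05; adjusted p = 0.82). Its arrays lay between 11.66 and 12.59, with C3H/HeJ at 12.59, 12.52, 11.89 and 11.96 and DBA/2J at 11.66, 12.12, 11.81 and 11.82. The highest and lowest strain overlapped, because array 2 of DBA/2J lay above arrays 3 and 4 of C3H/HeJ. In the second month alone, with single arrays as units, Snap25 did pass over 7 strains, with A/J at 12.11 and C57BL/6J at 11.75 (range 0.36, adjusted p = 0.0058), and in the first month it did not (range 0.67, adjusted p = 0.14).

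Stx1a, the syntaxin of the release complex, had the narrowest range of the members, 0.28 between BALB/cByJ (8.07 ± 0.18) and A/J (7.79 ± 0.34; adjusted p = 0.98). Its 32 arrays lay between 7.47 and 8.33, and 4.35% of tested probe sets had a smaller range. In BALB/cByJ it read 8.01, 7.88, 8.21 and 8.17, and in A/J 8.05, 8.00, 7.63 and 7.47, so that the strains overlapped with preparation 1 and parted with preparation 2.

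The 2 probe sets of Vamp2, the vesicle SNARE, gave different pictures. On the brighter one the strain means spanned 0.46, with BALB/cByJ at 11.49 ± 0.06 and DBA/2J at 11.02 ± 0.25 (adjusted p = 0.94). On the dimmer one they spanned 0.77, with BALB/cByJ at 9.04 ± 0.69 and C57BL/6J at 8.26 ± 0.15 (adjusted p = 0.68). Single arrays scattered more on the dimmer one: its 4 values in BALB/cByJ were 9.19, 7.91, 9.41 and 9.64, beside 11.69, 11.20, 11.75 and 11.30 on the brighter one. BALB/cByJ had the highest mean on both, but it passed against the other 7 strains on neither (adjusted p = 0.29 on the dimmer and 0.38 on the brighter). With the preparation block the brighter one passed in 1 pair, BALB/cByJ above DBA/2J by 0.46 (adjusted p = 0.033). Every BALB/cByJ array and no DBA/2J array has high sense-strand signal, so strain and that signal cannot be told apart in this pair.

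Cplx1, the closest relative of Cplx2, spanned 0.53 between BALB/cByJ (10.16 ± 0.02) and DBA/2J (9.64 ± 0.20; adjusted p = 0.62, and 0.070 with the block). Its arrays read 10.23, 10.07, 10.31 and 10.05 in BALB/cByJ and 9.83, 9.73, 9.48 and 9.51 in DBA/2J. These did not overlap, but C57BL/6J (9.89, 9.99, 9.19 and 9.54) reached lower still on array 3. With the block BALB/cByJ passed above DBA/2J and above C57BL/6J, and without it no pair did. Every BALB/cByJ array and no array of DBA/2J or C57BL/6J has high sense-strand signal, which cannot be told apart from strain in these pairs. DBA/2J thus had the lowest mean for both complexins, but for Cplx1 C57BL/6J lay only 0.01 above it (pair contrast, adjusted p = 0.998). A/J, the highest for Cplx2, was the fourth for Cplx1 at 9.997 ± 0.26.

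Syn2, a synapsin of the reserve pool, had a range of 1.07 between BALB/cByJ (10.21 ± 0.32) and C57BL/6J (9.14 ± 0.18), close to that of Syt1, without passing (adjusted p = 0.75). Preparation held 76.7% of its variance. In strain-129S1/SvImJ it read 10.55 and 10.40 with preparation 1 and 9.43 and 9.27 with preparation 2. A/J gave 10.41 and 10.40, then 9.26 and 9.22. In SJL/J the values were 10.32 and 10.51, then 9.17 and 9.32, and in C3H/HeJ 10.44 and 10.29, then 9.12 and 9.50. In these 4 strains preparation 1 exceeded preparation 2 by 1.05 to 1.17, about as much as the highest strain mean exceeded the lowest. C57BL/6J read 9.48, 9.06, 8.89 and 9.13, the lowest mean with either preparation. DBA/2J read 9.42, 9.84, 9.28 and 9.43, below those 4 strains with preparation 1 and inside their range with preparation 2. BALB/cByJ read 10.36, 10.50, 9.92 and 10.05, the highest with preparation 2. FVB/NJ read 10.21 on array 1 and 8.85, 8.98 and 9.53 on the others.

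With the block Syn2 passed in BALB/cByJ, 0.57 above the other 7 strains (adjusted p = 0.025). It also passed in C57BL/6J, with a difference of -0.64 (adjusted p = 0.042), though its F-test did not (adjusted p = 0.051). The block sets third-month arrays of BALB/cByJ beside mostly second-month arrays of the other strains. Every BALB/cByJ array has high sense-strand signal, so strain and that signal cannot be told apart there. Within the first month alone, with single arrays as units, the Syn2 range of 1.20 passed (strain-129S1/SvImJ 10.48, C57BL/6J 9.27, adjusted p = 0.0036). In the second month the range was 0.44 and did not. Arrays with high sense-strand signal read Syn2 at 10.41 in A/J, 10.36 in C3H/HeJ and 10.41 in SJL/J, against 9.24, 9.31 and 9.25 on the other arrays of these strains. In strain-129S1/SvImJ all 4 arrays had low sense-strand signal, and Syn2 still read 10.55 and 10.40 on arrays 1 and 2. The part of the sense-strand signal in these differences was not tested.

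Syp, the vesicle membrane marker, spanned 0.35 between strain-129S1/SvImJ (8.99 ± 0.05) and C57BL/6J (8.64 ± 0.12; adjusted p = 0.65). Strain-129S1/SvImJ read 9.01, 9.04, 8.97 and 8.95 and C57BL/6J 8.61, 8.50, 8.66 and 8.78, without overlap. The widest scatter was within BALB/cByJ, at 8.40, 8.91, 9.12 and 9.24, which covered both of these strains.

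**Figure D3:**
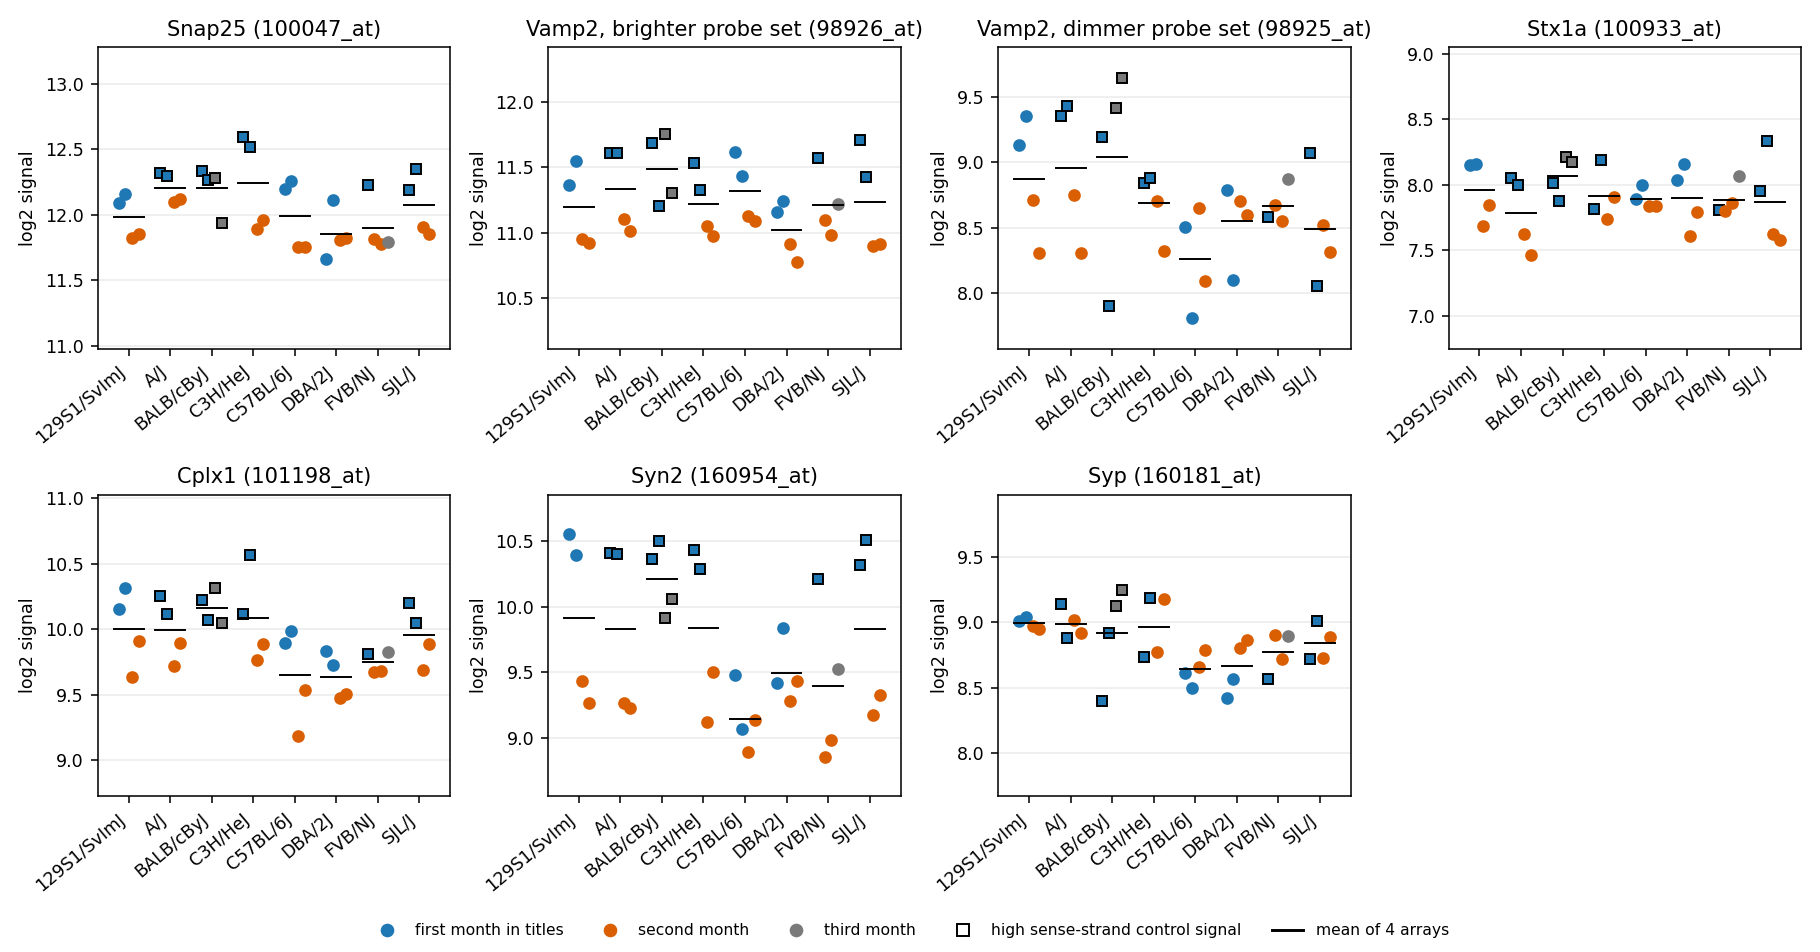
Log2 signal of the 4 arrays of each strain for the 7 member probe sets that did not pass the F-test, with colour for the month in the titles, squares for arrays with high sense-strand control signal and a line at the strain mean (vertical axes start at different levels but span the same number of log2 units). In Syn2 the first-month arrays of strain-129S1/SvImJ, A/J, C3H/HeJ and SJL/J lie at 10.29 to 10.55 and their second-month arrays at 9.12 to 9.50.

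Preparation was the larger source of spread for most of the release genes. The median share of variance over the 9 probe sets was 0% for strain, 69.5% for preparation and 25.4% for array, beside 6.73%, 20.9% and 58.3% over all tested probe sets. These are estimated components, and an estimate below 0 was set to 0. A strain share of 0% means that strain means spread no more than the preparations within strains would give, and not that strains were equal. A preparation difference shared by the strains counts as preparation here. The mean difference of preparation 1 minus preparation 2 was 0.72 ± 0.44 (SD over 8 strains) for Syn2, positive in 8 of 8 strains, and 99.2% of all tested probe sets had a lower mean difference. It was 0.38 ± 0.23 for the brighter Vamp2 probe set (7 of 8), 0.31 ± 0.23 for Cplx1 (6 of 8), 0.31 ± 0.18 for Snap25 (8 of 8) and 0.21 ± 0.30 for Stx1a (6 of 8). The 5 were thus brighter with preparation 1 in most strains, where the median probe set differed by -0.08.

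The mean difference was 0.10 ± 0.59 for Cplx2, 0.08 ± 0.59 for the dimmer Vamp2 probe set and -0.12 ± 0.21 for Syp, positive in 5, 4 and 3 of 8 strains. For Syt1 it was -0.13 ± 0.23, with preparation 1 the brighter in 2 of 8 strains and preparation 2 in the other 6. For Cplx2 the difference was 1.06 in SJL/J and 0.66 in FVB/NJ, and -0.74 in BALB/cByJ and -0.43 in DBA/2J. BALB/cByJ, whose arrays 3 and 4 have titles in the third month, was negative for 6 of the 9 probe sets, among them Cplx1 (-0.03) and Stx1a (-0.25), and positive for Syn2 (0.45), Snap25 (0.19) and Syt1 (0.21).

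**Figure D4:**
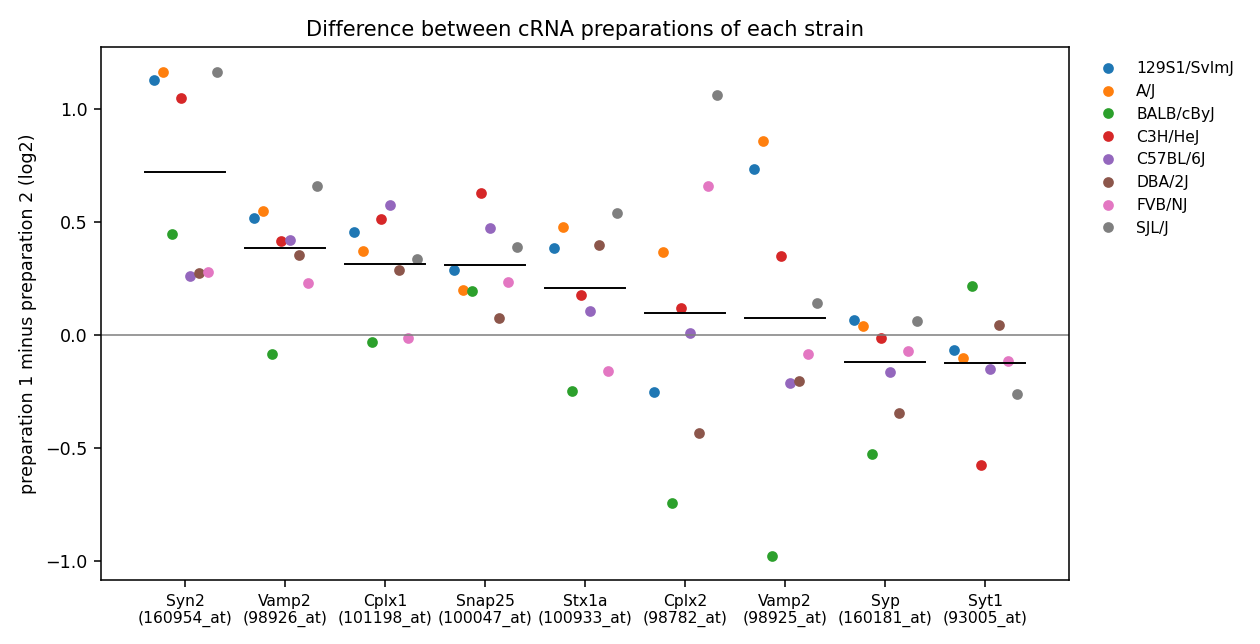
Difference in log2 signal of preparation 1 minus preparation 2 for each member probe set (horizontal axis), with 1 point per strain and a line at the mean. Syn2 (mean 0.72) and Snap25 (mean 0.31) are above 0 in all 8 strains, and Cplx2 runs from 1.06 in SJL/J to -0.74 in BALB/cByJ.

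Among the other genes of the release pathway, 98 genes on 118 probe sets were tested in 6 lists, and 8 probe sets (6.78%) passed the F-test across strains, where 4.58% of all did. With the preparation block 27 of them (22.9%) passed, near the 18.9% of all probe sets that did, which is also the share behind each count with the block below. Their median range was 0.58, beside 0.68 over all tested probe sets. Synaptotagmins and other calcium sensors had 0 of 9 past the test and 3 with the block. Of these, Syt11 averaged 9.13 with a range of 0.35 (adjusted p = 0.65) and Syt5 8.64 with a range of 0.48 (adjusted p = 0.59).

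Among the SNAREs and their handling proteins 3 of 33 probe sets passed (6 with the block). Vti1b, an endosomal SNARE, read 8.65 ± 0.06 in DBA/2J and 7.05 ± 0.34 in BALB/cByJ (adjusted p = 0.0023), the same highest and lowest strain as Syt1. Napb, the brain form of the adaptor that recruits the SNARE-disassembling ATPase, read 8.93 ± 0.06 in A/J and 7.98 ± 0.01 in FVB/NJ (adjusted p = 0.0039) on a probe set that, by its suffix, may also read related transcripts. Its other probe set spanned 0.53 and did not pass (adjusted p = 0.81). Stxbp2, a syntaxin-binding protein best known outside neurons, read 6.995 ± 0.31 in BALB/cByJ and 5.34 ± 0.15 in strain-129S1/SvImJ (adjusted p = 0.041).

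Of the other vesicle proteins 1 of 16 probe sets passed (2 with the block). This was Rab3b, a small GTPase of secretory vesicles, with 6.65 ± 0.10 in C57BL/6J and 4.21 ± 0.70 in FVB/NJ (adjusted p = 0.0056), near the low end of the tested signals. Of the vesicular transporters and proton pump subunits 2 of 19 passed (6 with the block). Slc32a1, the vesicular transporter of inhibitory transmitters, read 9.12 ± 0.14 in C57BL/6J and 6.89 ± 0.30 in DBA/2J (adjusted p = 0.0003). The pump subunit Atp6v1d read 9.52 ± 0.02 in DBA/2J and 7.78 ± 0.20 in BALB/cByJ (adjusted p = 7.3e-06), again the highest and lowest strain of Syt1. Over all tested probe sets, 5.84% were called between these strains and 8.92% in BALB/cByJ against the other 7. Every BALB/cByJ array and no DBA/2J array has high sense-strand signal, which cannot be told apart from strain here.

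In the active zone list 1 of 15 probe sets passed (7 with the block). It was Lin7c, a scaffold protein, with 8.74 ± 0.37 in FVB/NJ and 6.76 ± 0.67 in C3H/HeJ (adjusted p = 0.015). Of the genes of vesicle retrieval 1 of 26 passed (3 with the block), Clta, a clathrin light chain, with 9.27 ± 0.28 in C57BL/6J and 7.68 ± 0.39 in strain-129S1/SvImJ (adjusted p = 0.0059), on a probe set that may read several transcripts.

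The genes whose pattern was most like that of Syt1 were looked for among 287 named probe sets past the F-test, by Pearson's r over the 16 preparation values, which share 8 pools. They were Itgav (r = 0.92, on a probe set that may read several transcripts), Tpp1 (r = 0.89) and Ube2d3 (r = 0.86). Each had its lowest mean in BALB/cByJ, which choosing by likeness to Syt1 favours. BALB/cByJ also had the largest share of all probe sets called against the other strains, 8.92%. The most opposed were Casp9 (r = -0.86) and Ica1 (r = -0.81), each highest in BALB/cByJ, at 6.99 and 7.98. For Cplx2 the nearest were Usp2 (r = 0.78), Gm15772 (r = 0.77) and Nrgn (r = 0.76), and the most opposed Resp18 (r = -0.85) and Mrpl27 (r = -0.84). Usp2 and Nrgn were highest in A/J, like Cplx2, and Resp18 and Mrpl27 were lowest in C3H/HeJ. These values describe likeness over the same arrays.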

How the data were processed

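The deposited intensity values are linear signals, which the submitters' processing notes credit to MAS5. No version, scaling target or detection call was stated in the sources used here. The 2% trimmed mean was 100.05 to 100.07 and the median signal 29.4 to 43.65 on every array, so no further scaling was applied. The 66 control probe sets among 12488 were dropped. Any signal under 1 (2.14% of values) was set to 1, log2 was taken, and the 60% with the highest mean log2 were tested (geometric mean of at least 21.3). The platform annotation gave 1 symbol to 10833 probe sets, several to 396 and none to 1193.

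The 2 arrays of a preparation were averaged (16 values), and 8 strain means were fitted with limma 3.58.1 in R 4.3.3 (eBayes with trend, 8 residual degrees of freedom), giving a moderated F-test, contrasts of each strain with the other 7 and 28 pairs. Benjamini-Hochberg adjustment ran over all 7453 probe sets within each contrast. Variance shares are components estimated from nested mean squares (preparation within strain), with estimates below 0 set to 0. The members, gene lists, tests and rule for named genes were chosen with earlier results of these data known. The rule took all members, up to 6 genes past the F-test per pathway list (otherwise the 2 brightest) and the 3 most and 2 least similar genes per called member. The preparation numbers pair the samples in the block setting and not in the main fit. They mark a synthesis per the series design, but the title months of a number differ for BALB/cByJ and FVB/NJ. The difference between preparations correlated in 28 of 28 strain pairs (r 0.109 to 0.557, median 0.385, and 0.109 to 0.244 for pairs with BALB/cByJ). On simulated data the F-test was checked with 7453 probe sets, of which 100 were changed by 1 and 100 by 2 on the log2 scale in C57BL/6J, and recovered 24% and 77%. The simulated noise was independent for each preparation, without the preparation difference that strains share in the real data. Only C57BL/6J was changed, so these shares do not cover patterns over several strains.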

Additional observations from a re-analysis of the deposited data

Results flagged for a closer look

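Among 72 groups of 4 arrays (9 probe sets in 8 strains), 2 had an array whose gap to the others exceeded Dixon's 95% critical value, where chance flags about 1 group in 20. Snap25 in FVB/NJ read 12.22 on array 1, against 11.77 to 11.81 on the other 3 arrays. That array has high sense-strand control signal and a title in the first month, unlike the other 3 of the strain, and it also gave the highest value of FVB/NJ for Cplx2 (10.62), Syn2 (10.21) and the brighter Vamp2 probe set (11.57). Syt1 in A/J read 9.994 on array 2, against 10.20 to 10.21 on the other 3 arrays. A/J stayed in the upper group of strains for Syt1 with that array.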

How the results depend on the processing

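Each result was recomputed under 66 other settings, 48 of them leaving out 1 array or 1 preparation. No followed difference between strains changed sign, and counts and ranges cannot. These differences were taken from the calls in the same data. The range of Cplx2 (2.07 to 2.81) passed in 66 of 66 and that of Syt1 in 64 of 66; Stx1a, Syp and both Vamp2 probe sets passed in 0. The preparation block (replicate block) moved the F-test count over all probe sets to 1405 against 341, member calls by strain to 10 against 5, member calls by pair to 28 against 17 and pathway probe sets to 27 against 8; it left the members at 2. Single arrays as units gave 1388, 28 by pair and 31; a random block for preparation 667 and 13. With the title day as a block the counts were 2324, 5 member probe sets, 13 by strain, 43 by pair and 52. Settings chosen after seeing the data followed: title month as a block gave 2120, 5, 10, 38 and 46, the first month alone 9 by strain, 30 by pair and 14, the second month alone 1044, 11 by strain, 27 by pair and 24, and leaving out arrays of high sense-strand signal 162, 1 member probe set, 8 by pair and 5. The title blocks added Cplx1 (adjusted p 0.0018 for day and 0.0038 for month), Snap25 (0.020 and 0.025) and Syn2 (0.0076 and 0.0042) to Cplx2 and Syt1. Calls by strain were 3 after median centring, 3 without the variance trend and 1 with array 2 of FVB/NJ moved to preparation 2; calls by pair were 10 without the trend. Without BALB/cByJ 1 member probe set and 9 pairs passed. Leaving out 1 array or preparation gave 260 to 380 probe sets in all, 2 to 2 members, 7 to 11 pathway probe sets, 1 (without array 2 of FVB/NJ) to 7 calls by strain and 10 (without array 3 of BALB/cByJ) to 20 by pair. Calls by strain fell to 3 without array 1 or either preparation of C57BL/6J, preparation 2 of A/J or preparation 1 of DBA/2J, and calls by pair to 11 without preparation 1 of C3H/HeJ. The difference of Syt1 in BALB/cByJ passed in 63 of 63 (-0.53 to -1.28), that of Cplx2 in A/J in 62 of 66 (1.26 to 1.63), in DBA/2J in 62, in C57BL/6J in 59, and in BALB/cByJ in 47 of 63. Causes of these shifts were not tested beyond what each setting changes. Strains are single pools, so no setting bears on the spread between animals.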

Other observations

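The neighbourhood of the 2 called members was looked at after their values were seen, using the order of genes in the RefSeq table of GRCm38.p6. The nearest tested gene on 1 side of Cplx2 was Thoc3, a subunit of the complex that couples transcription to RNA export, with 1 gene between them. Thoc3 also passed the F-test (range 1.20, adjusted p = 0.0056) and was lowest in C57BL/6J, but it was highest in strain-129S1/SvImJ, where Cplx2 was low. The nearest on the other side, Hrh2, a histamine receptor, had a range of 0.75 and did not pass (adjusted p = 0.85). Beside Syt1 the nearest tested gene on 1 side was Slc6a15, a neutral amino acid transporter, 52 genes away, which passed (range 1.35, adjusted p = 0.0098) and was lowest in BALB/cByJ, as Syt1 was, but highest in C57BL/6J, with r = 0.15 to Syt1 over the 16 preparation values. On the other side both probe sets of Nap1l1, a histone chaperone, had their lowest mean in BALB/cByJ and did not pass (adjusted p = 0.78 and 0.83).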
